A study of Mus musculus with 2 samples.

Results

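Pleiotrophin (Ptn), midkine (Mdk) and the cell-surface proteoglycans syndecan-1 (Sdc1) and syndecan-4 (Sdc4) were followed through single cells of the mouse submandibular gland. The 4 genes were taken from the 27998 genes of the count tables by name, for differences already seen in these libraries, so that their values are a description and were not tested. One droplet library came from a p63 KO mouse and 1 from a p63 WT mouse, both adult at 12 weeks of age. The transcription factor p63, made from the gene Trp63, marks and maintains the basal cells of many epithelia. The labels name no strain, no Cre or promoter, and no time or extent of the deletion, and do not say whether glands were pooled.

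Pleiotrophin and midkine are the 2 members of a family of small secreted growth factors that bind heparin. They act on neighbouring cells through the receptor phosphatases Ptprz1 and Ptprs, the tyrosine kinase Alk, the endocytic receptor Lrp1, integrins, and the heparan sulfate and chondroitin sulfate chains of proteoglycans, syndecans among them. Syndecan-1 is the main syndecan of epithelia and plasma cells, and syndecan-4 is a broadly made member that sits in focal adhesions. Both growth factors are known from developing organs in which epithelium meets mesenchyme.

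The KO library held 11828669 unique molecular identifiers (UMIs, each marking 1 captured molecule) in 4726 barcodes, and the WT library 8811082 in 1970. A barcode counted as a cell if it had 200 genes or more and less than 20% of its UMIs from mitochondrial genes; this held for 2423 KO barcodes (51.3%), with a median of 2088 UMIs, and 1663 WT barcodes (84.4%), with a median of 3406. The libraries shared 11 barcode sequences, 7 of them among kept cells of both. Although the labels call the source epithelial progenitor cells, clusters with endothelial and immune markers were present in both libraries, as in a whole gland. Trp63 itself had 20 UMIs in KO cells and 149 in WT cells, and 14 of the 20 lay in KO myoepithelial-like cells. These are reads of the 3' end, which need not lie in the deleted part. Levels are given as CPM, the UMIs of a gene per 1000000 UMIs of the cell class. With 1 library per genotype, every interval is a 95% interval of counting error only, and no difference has a replicate check. Differences were therefore read by a size rule: a gene passed if the 2 libraries held 50 or more of its UMIs and the whole interval of its KO over WT ratio lay beyond 2-fold.

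Cells were clustered in each library separately, with the 4 genes and Trp63 left out of the genes used. Clusters set apart by the basal keratins are called Krt14/Krt17 cells here. In WT these were 2 clusters of 196 cells each that carried basal duct markers. In KO it was 1 cluster of 114 cells with Krt14 and Krt17 among its leading 50 genes but too few other basal markers to be named: Krt15 had 0 UMIs against 638 in WT Krt14/Krt17 cells, and Krt5 had 5 against 482. Both libraries were also clustered together, without correction for library. Of the 114 KO cells, 96 then lay with striated or excretory duct-like cells and 4 with the WT Krt14/Krt17 cells. The joint striated or excretory clusters held 265 KO and 9 WT cells and 24 KO and 36 WT cells, so most of the 96 lay beside other KO cells. The joint Krt14/Krt17 cluster held 4 KO and 387 WT cells. Other duct classes also split by library. Joint intercalated duct-like clusters held 266 KO and 11 WT cells and 3 KO and 260 WT cells. Joint granular convoluted tubule-like clusters held 442 KO and 25 WT cells and 5 KO and 110 WT cells. The joint myoepithelial-like cluster was more mixed, with 83 KO and 41 WT cells. Whether the KO and WT cells of Krt14/Krt17 or of these duct classes are the same cell type was not tested.

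All 4 genes lay alone at their loci in GENCODE M21 on GRCm38, with no overlapping gene on either strand. Ptn (ENSMUSG00000029838) spans chromosome 6 from 36714929 to 36810220 on the minus strand, and Mdk (ENSMUSG00000027239) chromosome 2 from 91929805 to 91932297 on the minus strand. Sdc1 (ENSMUSG00000020592) spans chromosome 12 from 8771323 to 8793715 on the plus strand, and Sdc4 (ENSMUSG00000017009) chromosome 2 from 164424247 to 164443887 on the minus strand.

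RefSeq promoter windows of GRCm38.p6 were matched for 3 of the 4 genes, each of 300 bases with 250 before the transcript's start. They are shown for Ptn, the gene nearly without UMIs in KO cells, beside the 2 syndecans, which had UMIs in both libraries. The windows are chr6:36810130-36810429 (minus strand) for Ptn, chr12:8771146-8771445 (plus strand) for Sdc1 and chr2:164443139-164443438 (minus strand) for Sdc4; the Sdc4 window lies within the longer gene span that GENCODE gives. Capitals mark CATG in Ptn and GGGCGG in Sdc1 and Sdc4.
Ptn: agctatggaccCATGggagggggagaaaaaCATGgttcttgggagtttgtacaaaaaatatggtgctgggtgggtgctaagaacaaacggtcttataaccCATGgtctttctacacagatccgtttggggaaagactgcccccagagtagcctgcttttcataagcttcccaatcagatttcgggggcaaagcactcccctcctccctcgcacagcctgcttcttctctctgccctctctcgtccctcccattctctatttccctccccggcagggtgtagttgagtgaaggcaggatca
Sdc1: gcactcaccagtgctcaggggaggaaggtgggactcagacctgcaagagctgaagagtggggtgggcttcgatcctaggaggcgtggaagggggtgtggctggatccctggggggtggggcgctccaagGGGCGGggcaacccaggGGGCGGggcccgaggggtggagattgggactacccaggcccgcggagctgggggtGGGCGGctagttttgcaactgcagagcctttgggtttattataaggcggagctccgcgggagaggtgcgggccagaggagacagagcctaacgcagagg
Sdc4: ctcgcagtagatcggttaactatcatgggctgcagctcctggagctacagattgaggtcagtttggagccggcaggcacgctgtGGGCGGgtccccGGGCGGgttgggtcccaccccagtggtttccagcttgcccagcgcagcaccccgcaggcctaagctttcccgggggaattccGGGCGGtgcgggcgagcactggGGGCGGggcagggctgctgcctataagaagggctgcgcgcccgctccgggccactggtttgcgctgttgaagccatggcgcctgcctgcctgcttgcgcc
The tetramer CATG, which reads the same on both strands, is at the centre of many half-sites of the p53 family, to which p63 belongs. It occurred 3 times in the Ptn window, with first bases 239, 220 and 150 bases upstream of the start, 0 times in that of Sdc1 and 2 times in that of Sdc4. At least 1 CATG was present in 61.1% of the 32851 windows of this length, and at least 3 in 10.8%. A full p53-family half-site was searched on both strands and was in none of the 3 windows, against 8.36% of all windows. GGGCGG, the core of a GC box, was searched on both strands and occurred 0 times in Ptn, 3 times in Sdc1 and 4 times in Sdc4, against 35.7% of windows with at least 1. TATAA was in all 3 windows, against 24.9% of windows, and lay 29 bases upstream of the start in Sdc4. In Ptn and Sdc1 its matches on the 2 strands overlapped in 1 run. GC content was 52.0% in Ptn, 66.3% in Sdc1 and 67.7% in Sdc4, beside a median of 52.7% over all windows. A match is a run of letters and not a bound site.

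Ptn was nearly absent from the KO library. Summed over the library, Ptn had 5 UMIs in KO (0.728 CPM, 0.236 to 1.70) and 2039 in WT (257 CPM, 246 to 269), which is 353-fold lower in KO (151- to 1089-fold). In this comparison 2.49% of 10285 genes passed the size rule as lower in KO and 6.72% as higher. A level over all cells also moves with the mix of cell classes, and the part of that mix was not tested. In Krt14/Krt17 cells Ptn had 3 UMIs in KO (8.29 CPM, 1.71 to 24.2) and 1542 in WT (974 CPM, 926 to 1024), 118-fold lower in KO (40.2- to 571-fold). Clustering both libraries together left 4 KO cells with 0 UMIs, for which the log2 ratio against the floor of 3 UMIs was -1.96, in place of -6.88. Here 1.99% of 3961 genes passed as lower and 1.57% as higher, and of the 4 genes Ptn and Mdk passed as lower and none as higher. With trimmed-mean scaling (TMM) in place of total UMIs, which shifted all log2 ratios of these cells by -0.17, the calls over all genes split into 42 higher and 118 lower, against 62 and 79 without it.

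Single cells showed the same. A Ptn UMI was found in 3 of 114 KO Krt14/Krt17 cells (2.63%, 0.546 to 7.50%) and in 329 of 392 WT cells (83.9%, 79.9 to 87.4%). No KO cell held more than 1, while WT cells had a median of 3, a 90th percentile of 9 and a maximum of 21. Median depth was 2472 UMIs in the KO cells and 3321 in the WT cells. With every cell brought to 1000 UMIs, the expected share with a Ptn UMI was 1.53% in KO and 52.9% in WT. Immune-like cells were taken as a gauge of free RNA in droplets, though whether they make some Ptn themselves was not tested. Of these, 0 of 354 KO cells had a UMI, which allows a share of up to 0.847%, and 4 of 130 WT cells did (3.08%). Their median depths were 1493 and 2602 UMIs. Within the KO library, the interval of the share in Krt14/Krt17 cells (0.546 to 7.50%) reached below the 0.847% allowed in immune-like cells. The WT share comes from a library with far more Ptn and does not gauge free RNA in KO droplets. The 5 KO cells with a Ptn UMI were 3 Krt14/Krt17, 1 fibroblast-like and 1 ionocyte-like cell; 2 of them also held Krt14 UMIs and none a Trp63 UMI.

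**Figure D1:**
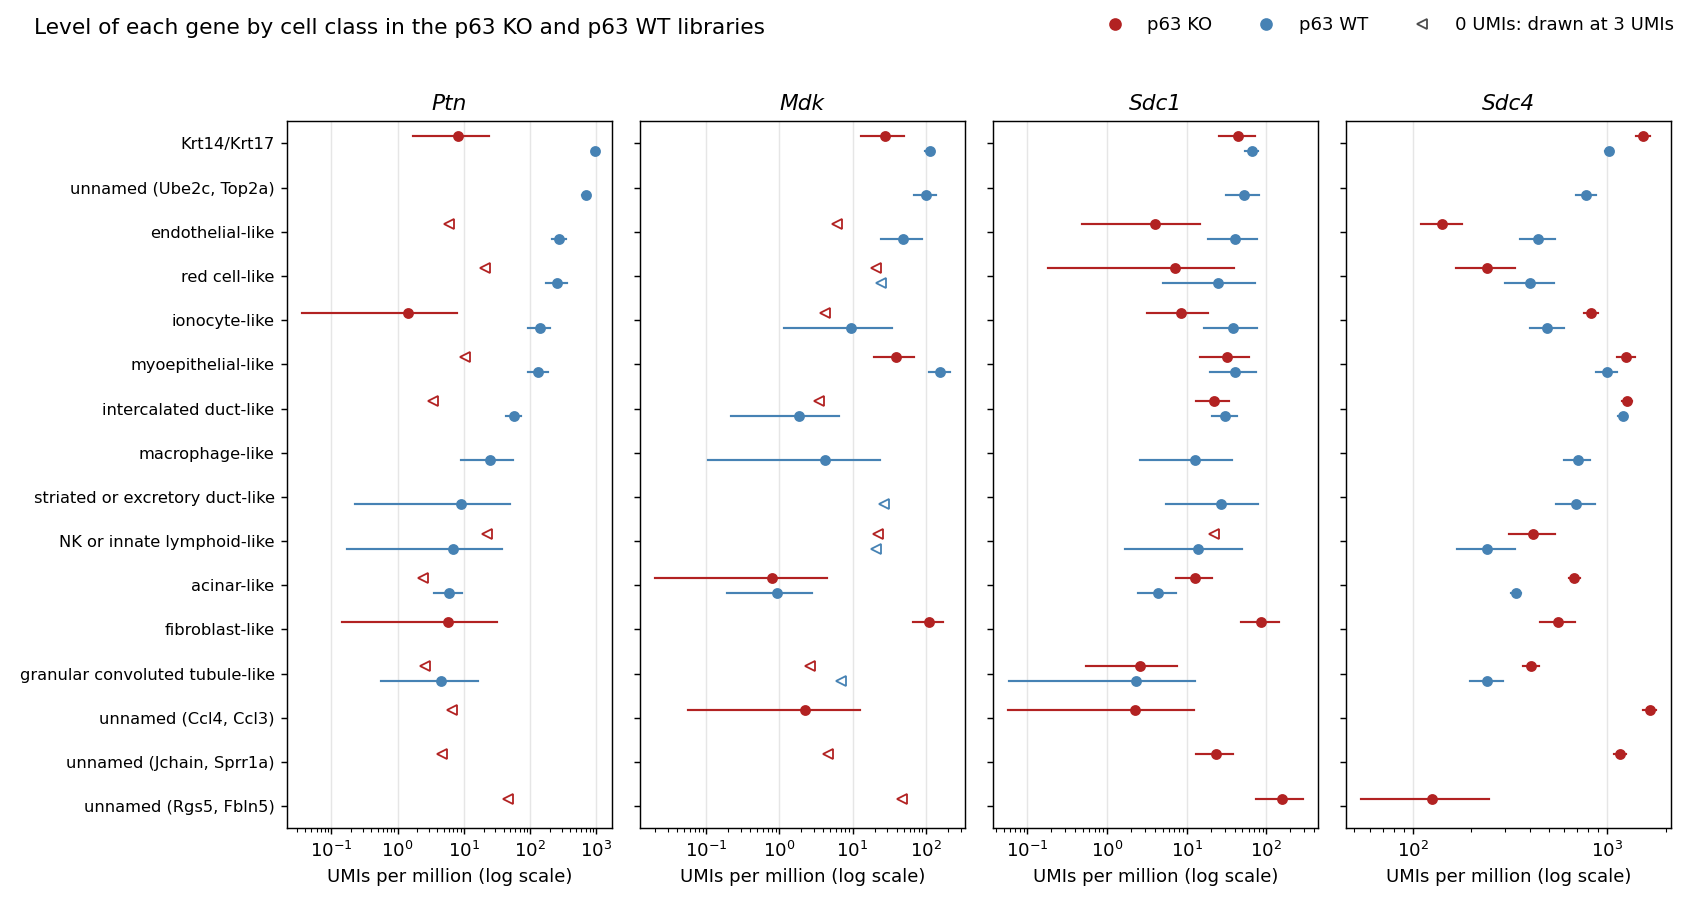
Level of Ptn, Mdk, Sdc1 and Sdc4 in each cell class of at least 30 cells, in CPM on a log axis, with p63 KO (red) drawn above p63 WT (blue). Points are class sums, lines 95% Poisson intervals of counting error, and open triangles stand at 3 UMIs for classes with 0 UMIs. Ptn reached 974 CPM in WT Krt14/Krt17 cells and 8.29 CPM in KO Krt14/Krt17 cells, while Sdc4 stayed above 100 CPM in every class shown.

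In the WT library most Ptn lay in the Krt14/Krt17 cells. Krt14/Krt17 cells were 23.6% of WT cells and gave 75.6% of Ptn UMIs. Next came a cluster of 61 cycling cells led by Ube2c and Top2a, genes of mitosis, with 694 CPM (610 to 785), 80.3% of its cells with a UMI and 12.3% of Ptn UMIs. Both levels stood apart from each other and from every other class beyond counting error. The cycling cluster also carried Krt14, at 1310 CPM. In KO no cluster was led by cycling genes, so this comparison could not be made. The 2 WT Krt14/Krt17 clusters were close in Ptn: 911 CPM (844 to 982) in the one led by F3 and Sfn, which had more Krt14, and 1031 (963 to 1102) in the one led by Id3 and Ptn. Their immediate early genes were far apart, with Fos at 497 and 3984 CPM in that order.

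Lower Ptn levels followed in several WT classes, each with Krt14 beside it. Endothelial-like cells had 276 CPM (212 to 354), red cell-like barcodes 255 (173 to 362), ionocyte-like cells 140 (93.8 to 201), myoepithelial-like cells 134 (92.5 to 189) and intercalated duct-like cells 56.9 (43.6 to 72.9). Each of the first 3 overlapped the next within counting error, and intercalated duct-like cells stood below all 4. Krt14, which endothelial and red cells do not make, was at 842 CPM in the WT endothelial-like cells and at 609 in the red cell-like barcodes. Of the 23 endothelial-like cells with a Ptn UMI, 18 also had a Krt14 UMI. Ptn per Krt14 UMI was 0.464 (0.437 to 0.493) in WT Krt14/Krt17 cells, 0.530 (0.453 to 0.618) in the cycling cluster, 0.590 (0.424 to 0.816) in intercalated duct-like, 0.475 (0.260 to 0.840) in acinar-like, 0.419 (0.266 to 0.645) in red cell-like, 0.353 (0.114 to 0.938) in macrophage-like and 0.328 (0.242 to 0.439) in endothelial-like cells. It was 0.0965 (0.0654 to 0.138) in myoepithelial-like cells, which make Krt14 themselves, and 1.45 (0.793 to 2.70) in ionocyte-like cells. Both intervals lay apart from that of WT Krt14/Krt17 cells, and each overlapped that of macrophage-like cells. Also apart from it were NK or innate lymphoid-like cells (0.0526, 0.00127 to 0.331). So was the striated or excretory class (0.0294, 0.000724 to 0.175), with 1 Ptn UMI beside 34 of Krt14. The WT Krt14/Krt17 value pools 2 clusters with unlike Krt14. Krt14 was at 2904 CPM in the one led by F3 and Sfn and at 1380 in the one led by Id3 and Ptn. Their Ptn levels were 911 and 1031 CPM. Other classes were not set against each cluster alone. The part of basal RNA in Ptn outside the Krt14/Krt17 cells was not tested further.

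The KO side of those classes was at or near 0. Myoepithelial-like cells, the contractile cells around acini, had 0 Ptn UMIs in 84 KO cells and 33 in 51 WT cells, at least 12.7-fold lower against a floor of 3 UMIs, with too few UMIs for the size rule (2.91% of 1480 genes lower, 3.78% higher). Intercalated duct-like cells had 0 in 238 KO cells and 62 in 238 WT cells, at least 16.4-fold lower, and passed the size rule (2.15% of 4753 genes lower, 1.66% higher). That call was lost with a stricter cell filter (500 genes, 10% mitochondrial UMIs) and at a finer clustering, which left 28 and 33 WT UMIs and 0 in KO. Endothelial-like cells had 0 in 284 KO cells and 62 in 68 WT cells, at least 45.6-fold lower, and passed (2.16% of 1896 genes lower, 4.54% higher). Without the cells that held a Krt14 UMI, 0 and 9 UMIs were left in that class, too few for the rule. Ionocyte-like cells had 1 in 278 KO cells and 29 in 64 WT cells, a ratio of 0.0102 (0.000249 to 0.0614) on too few UMIs for the rule (1.38% of 2318 genes lower, 1.08% higher). KO myoepithelial-like cells still held Krt14 at 534 CPM, against 1393 in WT.

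Mdk was lower in KO over all cells and in Krt14/Krt17 cells, with smaller folds than Ptn. Over all cells it had 42 UMIs in KO (6.11 CPM, 4.40 to 8.26) and 271 in WT (34.2 CPM, 30.2 to 38.5), 5.59-fold lower in KO (4.03- to 7.93-fold). In Krt14/Krt17 cells it had 10 UMIs in KO (27.6 CPM, 13.3 to 50.8) and 178 in WT (112 CPM, 96.6 to 130), 4.07-fold lower (2.16- to 8.64-fold). It was found in 10 of 114 KO cells (8.77%) and in 118 of 392 WT cells (30.1%). At 1000 UMIs per cell those shares were expected at 2.50% in KO and 9.86% in WT. The call rests on 10 KO molecules. Its log2 ratio of -2.03 no longer passed with the stricter cell filter (-1.89), with cells picked by Krt14 and Krt17 UMIs in place of clusters (-1.84), with cells of 2500 UMIs or more (-1.83), or when thinned or clustered together, which left too few KO UMIs or cells. Over all cells the call was lost without the Krt14/Krt17 clusters, at -1.58.

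Myoepithelial-like cells had the highest Mdk level in WT. There it had 11 UMIs in KO (38.9 CPM, 19.4 to 69.6) and 38 in WT (155 CPM, 110 to 212), a ratio of 0.251 (0.116 to 0.502) that is close to the one in Krt14/Krt17 cells but has under 50 UMIs. WT myoepithelial-like, Krt14/Krt17 and cycling cells (99.5 CPM) did not differ beyond counting error.

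The class with most Mdk UMIs in the KO library was fibroblast-like. These cells, 4.29% of KO cells, gave 19 of 42 KO Mdk UMIs (45.2%), at 110 CPM (66.1 to 171). No WT cluster was named fibroblast-like, so that level has no WT counterpart. Its interval overlapped that of KO myoepithelial-like cells and not that of KO Krt14/Krt17 cells. KO duct classes had no Mdk: 0 UMIs in 452 granular convoluted tubule-like, 278 ionocyte-like and 238 intercalated duct-like cells, against 0, 2 and 2 in WT. Endothelial-like cells had 0 in KO and 11 in WT, and 7 of the 8 WT cells with Mdk also held Ptn.

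**Figure D2:**
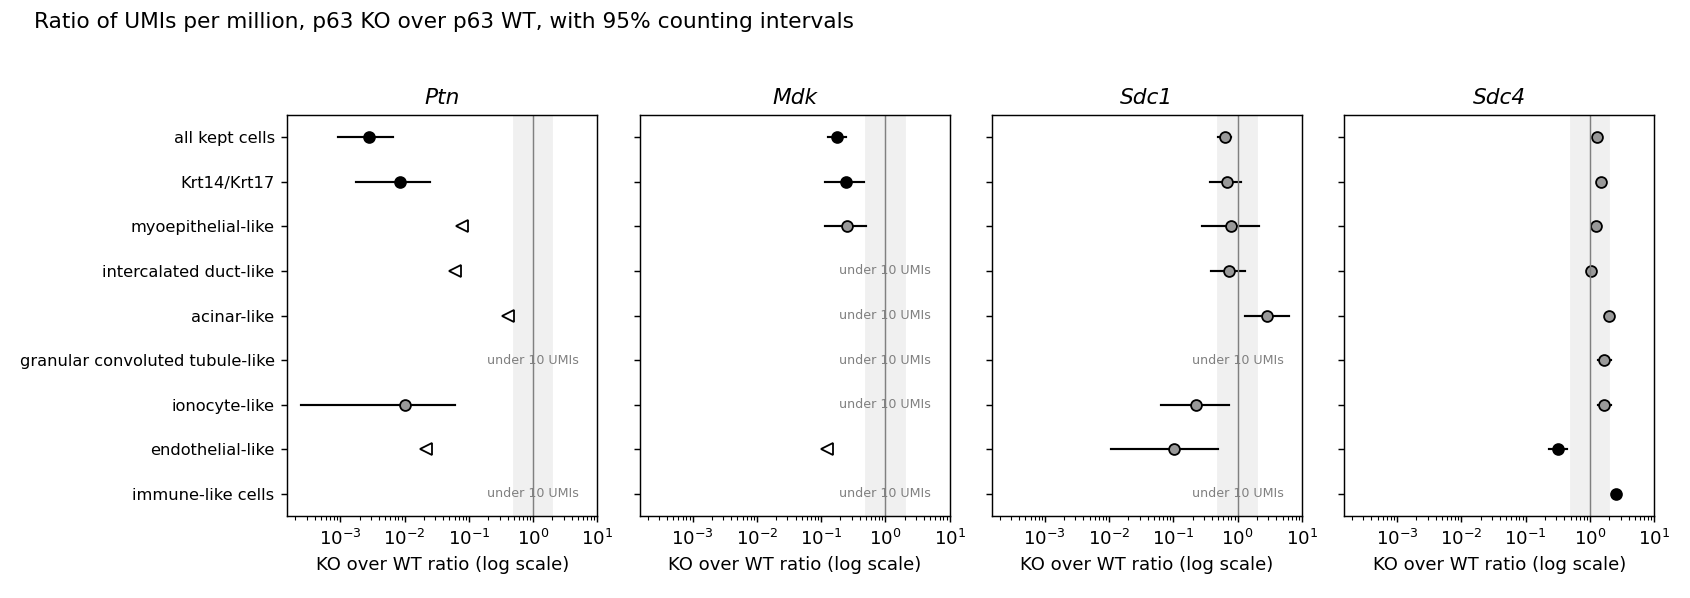
KO over WT ratio of CPM for each gene and class on a log axis, with 95% intervals of counting error; the grey band spans 2-fold either way. Black points passed the size rule, grey points did not, and open triangles are bounds for 0 KO UMIs against a floor of 3. Ptn lies left of the band in every class with at least 10 UMIs, Mdk in the 4 comparisons drawn for it, and Sdc4 inside the band or at its edge except in endothelial-like (0.320) and immune-like cells (2.58).

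**Figure D3:**
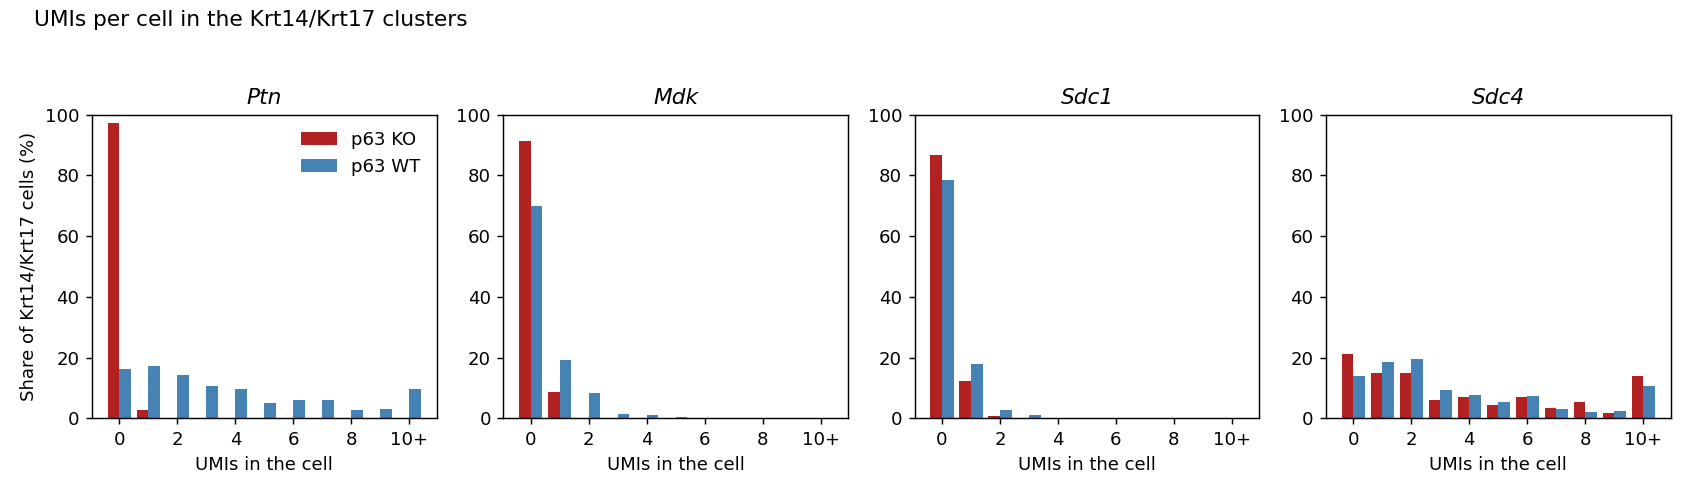
Share of Krt14/Krt17 cells (y axis, percent) by the number of UMIs of each gene in the cell (x axis, 10 and more pooled), p63 KO in red (114 cells) left of p63 WT in blue (392 cells). For Ptn 111 KO cells and 63 WT cells have 0 UMIs, while the bars for Sdc4 lie close together.

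Sdc1 did not pass the size rule in Krt14/Krt17 cells. In Krt14/Krt17 cells it had 16 UMIs in KO (44.2 CPM, 25.3 to 71.8) and 104 in WT (65.7 CPM, 53.7 to 79.6), a ratio of 0.673 (0.371 to 1.14). The interval allows a level from 2.70-fold lower to 1.14-fold higher in KO. Clustering both libraries together, which left 4 KO cells and 1 KO UMI, turned the log2 ratio to 0.28, in place of -0.57. In myoepithelial-like cells it had 9 and 10 UMIs in KO and WT, a ratio of 0.781 (0.281 to 2.14), and in intercalated duct-like cells 19 and 33, a ratio of 0.728 (0.391 to 1.32). Ionocyte-like cells had 6 in KO and 8 in WT (ratio 0.222, 0.0633 to 0.728) and endothelial-like cells 2 and 9 (ratio 0.101, 0.0106 to 0.487), both too few for the rule. Over all cells it had 115 UMIs in KO (16.7 CPM) and 209 in WT (26.4 CPM), a ratio of 0.635 (0.501 to 0.801) that did not pass, and without the Krt14/Krt17 clusters the log2 ratio was -0.12.

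The class with the highest Sdc1 level differed between the libraries. WT Krt14/Krt17 cells gave 49.8% of WT Sdc1 UMIs, and the next levels, 52.5 CPM in cycling cells, 40.7 in myoepithelial-like, 40.1 in endothelial-like and 38.6 in ionocyte-like cells, overlapped theirs or each other's. In KO the highest levels were in an unnamed cluster of 31 cells led by Rgs5, a pericyte gene, and Fbln5, a gene of elastic fibres, with 10 UMIs in 5 cells (157 CPM, 75.1 to 288), and in fibroblast-like cells with 15 UMIs in 8 cells (86.6 CPM, 48.5 to 143). Neither class had a WT counterpart. The fibroblast-like interval overlapped that of KO Krt14/Krt17 cells (44.2 CPM, 25.3 to 71.8), and that of the cluster led by Rgs5 did not. Among classes found in both libraries, Krt14/Krt17 cells had the highest Sdc1 level in each. Acinar-like cells had 16 UMIs in 194 KO cells (12.8 CPM) and 14 in 434 WT cells (4.42 CPM). The ratio was 2.89 (1.32 to 6.40), with too few UMIs for the size rule. This class pools unlike clusters: 29 of its KO cells and 156 of its WT cells lay in clusters led by Scgb2b26. In it 8.28% of 4434 genes passed as higher, and TMM moved all log2 ratios by -0.53.

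Sdc4 was found throughout the gland in both libraries. In Krt14/Krt17 cells it had 556 UMIs in KO (1536 CPM, 1411 to 1669) and 1619 in WT (1023 CPM, 974 to 1074), a ratio of 1.501 (1.36 to 1.65) that did not reach 2-fold. Clustering both libraries together, which left 4 KO cells with 4 UMIs, turned the log2 ratio to -1.61, in place of 0.59. A UMI was present in 90 of 114 KO cells (78.9%) and 337 of 392 WT cells (86.0%), with a median of 2 per cell in both and maxima of 33 and 31. At 1000 UMIs per cell the expected shares were 58.1% in KO and 53.04% in WT. The value depends on which WT cells stand beside the KO cluster: the 2 WT clusters had 1327 CPM (1245 to 1412) in the one led by F3 and Sfn and 752 (694 to 813) in the one led by Id3 and Ptn, and against the first alone the log2 ratio was 0.21, in place of 0.59. Myoepithelial-like cells had 353 UMIs in KO (1249 CPM) and 244 in WT (994 CPM), a ratio of 1.26 (1.06 to 1.49). In intercalated duct-like cells, the highest class in WT, Sdc4 had 1088 UMIs in KO (1261 CPM) and 1311 in WT (1202 CPM), a ratio of 1.05 (0.967 to 1.14).

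Other duct and acinar classes had a higher Sdc4 level in KO, short of the size rule. The ratio was 1.68 (1.358 to 2.099) in granular convoluted tubule-like cells, the duct cells that secrete kallikreins, with 463 and 105 UMIs in KO and WT (2.03% of 3259 genes higher, 1.29% lower). It was 1.68 (1.36 to 2.09) in ionocyte-like cells, with 579 and 102, and 2.002 (1.828 to 2.193) in acinar-like cells, with 850 and 1074 (8.28% of 4434 genes higher, 1.2% lower). In granular convoluted tubule-like cells the log2 ratio was 0.75 and turned to -0.48 with the stricter cell filter. The acinar-like value pools unlike clusters. In KO, 165 cells led by Smgc had 1208 CPM and 29 cells led by Scgb2b26 had 87.9 CPM. In WT, clusters of 185 and 93 cells with Smgc among their leading genes had 686 and 1029 CPM, and 156 cells led by Scgb2b26 had 55.6 CPM. TMM moved all acinar-like log2 ratios by -0.53 and put that of Sdc4 at 0.47. Over all cells the ratio was 1.29 (1.24 to 1.34).

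Endothelial-like and immune-like cells passed the size rule, in opposite directions. Endothelial-like cells had 70 Sdc4 UMIs in 284 KO cells (141 CPM, 110 to 179) and 99 in 68 WT cells (441 CPM, 358 to 537), 3.12-fold lower in KO (2.27- to 4.30-fold). Without a cell filter the log2 ratio was -0.74, in place of -1.64, and did not pass. In the WT cells, 18 of the 27 with Sdc4 also held Ptn. Without the cells that held a Krt14 UMI, 65 UMIs in 281 KO cells and 11 in 43 WT cells were left, and the direction turned, with a log2 ratio of 0.61 (-0.33 to 1.68); it also turned to 0.39 when both libraries were clustered together. Immune-like cells pooled NK or innate lymphoid-like with myeloid cells and had 794 UMIs in 354 KO cells (1368 CPM, 1274 to 1466) and 203 in 130 WT cells (530 CPM, 459 to 608), 2.58-fold higher in KO (2.21 to 3.03). In this pool 6.58% of 2158 genes passed as higher and 4.4% as lower. Most of it lay in the myeloid cells: 1657 CPM (1540 to 1781) in a KO cluster of 262 cells led by Ccl4, Ccl3 and the neutrophil gene S100a8, beside 705 CPM (603 to 820) in 80 WT macrophage-like cells. The 2 clusters differ in make-up. Clustered together, the libraries gave a log2 ratio of -0.03 for immune-like cells. That joint pool left out a neutrophil-like cluster of 267 KO and 19 WT cells. Its macrophage-like cluster held 0 KO and 66 WT cells, so the value does not describe the same pool. NK or innate lymphoid-like cells had 56 UMIs in 8 of 92 KO cells, 1 of which held 48, and 35 UMIs in 15 of 50 WT cells (1.39% of 647 genes higher, 4.48% lower).

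UMIs of Ptn and of the syndecans were found in the same WT cells. Of the 329 WT Krt14/Krt17 cells with Ptn, 287 (87.2%) also had an Sdc4 UMI, 100 (30.4%) had Mdk and 76 (23.1%) Sdc1. These shares are close to those over all 392 such cells, of which 337 had Sdc4, 118 Mdk and 85 Sdc1. Ptn was in 85.2% of the cells with Sdc4 and in 76.4% of those without it, but with every cell randomly thinned to 1000 UMIs the order turned, to 48.8% and 60.5%. Of 73 WT Krt14/Krt17 cells with a Trp63 UMI, 63 held Ptn (86.3%), and among those with no Trp63 UMI 83.4% held it; thinned, the shares were 54.5% and 54.1%. In KO, all 10 Krt14/Krt17 cells with Mdk also held Sdc4, which was in 90 of all 114 such cells, and none held Ptn.

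Of 19 other receptors and co-receptors of pleiotrophin and midkine, 7 had at least 50 UMIs in Krt14/Krt17 cells. One passed as lower and none as higher, beside 1.99% of 3961 genes lower and 1.57% higher. Their median log2 ratio was -0.05, beside 0.03 over all genes tested. The one was Npm1, nucleophosmin, a ribosome assembly protein that midkine and pleiotrophin also bind, with 459 CPM in KO and 1271 in WT (ratio 0.361, 0.306 to 0.423). Ribosomal protein genes took 24.4% of KO and 31.6% of WT UMIs in these cells, and the part of this difference in Npm1 was not tested. Ncl, nucleolin, had 362 and 523 CPM in KO and WT (ratio 0.692), and Itga6, the integrin alpha 6 chain, 199 and 137 (ratio 1.45); neither passed. In myoepithelial-like cells none of 4 receptors with enough UMIs passed in either direction. Alk had 0 UMIs in both libraries, and Ptprz1 had 6 in KO and 25 in WT. Lrp1 was highest in KO fibroblast-like cells (393 CPM) and WT myoepithelial-like cells (65.2 CPM), and Nrp1, a co-receptor, in endothelial-like cells of both libraries (606 CPM in KO, 503 in WT). Over all cells Lrp1 (3.87-fold) and Nrp1 (2.64-fold) passed as higher in KO, where the fibroblast-like and endothelial-like classes were also larger. They were 2 of 10 receptors tested there, beside 6.72% of 10285 genes higher.

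Among 12 other syndecans and heparan sulfate proteoglycans, 2 had enough UMIs in Krt14/Krt17 cells and neither passed (median log2 ratio -0.78): Agrn, agrin, at 16.6 CPM in KO and 31.6 in WT, and Cd44, a hyaluronan receptor that can carry such chains, at 11.1 and 29.7. Sdc2 was highest in KO fibroblast-like cells, at 347 CPM, and reached 36.7 CPM at most in any WT class. Gpc6, a glypican anchored to the membrane by a lipid, was lower in KO intercalated duct-like cells, with 13 UMIs in KO (15.1 CPM) and 87 in WT (79.8 CPM), a ratio of 0.189, the one of 4 list members with enough UMIs there to pass. Of all genes tested in those cells, 2.15% of 4753 passed as lower. Over all cells Gpc6 also passed as lower (ratio 0.335), 1 of 8 tested, beside 2.49% of 10285 genes.

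The enzymes that build and trim heparan sulfate gave little signal. Of 26, 4 had enough UMIs in Krt14/Krt17 cells and none passed (median log2 ratio -0.25); Ext1, which polymerises the chain, had 13.8 CPM in KO and 37.9 in WT (ratio 0.364, 0.114 to 0.898), and Hs2st1, a sulfotransferase, 44.2 and 29.7. Over all cells 1 of 15 passed, B3galt6, which adds a sugar of the linker, with 7 UMIs in KO and 45 in WT (ratio 0.180). Of all genes tested there, 2.49% of 10285 passed as lower. With so few members tested, 1 call says little about a list. Of 14 shedding enzymes and cytoplasmic partners of syndecans, none of 6 passed in Krt14/Krt17 cells (median log2 ratio 0.43). Sdcbp, syntenin, which binds the syndecan tail, was higher in KO immune-like cells (1070 CPM in KO, 404 in WT, ratio 2.65). This is the same class in which Sdc4 was higher. Sdcbp was 1 of 6 list members tested there, beside 6.58% of 2158 genes higher. It was at 312 and 267 CPM in KO and WT Krt14/Krt17 cells.

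Of 15 other heparin-binding factors none of 7 passed in Krt14/Krt17 cells (median log2 ratio -0.02). Hbegf, an EGF receptor ligand, had 298 CPM in KO and 325 in WT (ratio 0.917, 0.738 to 1.13), Pdgfa 124 and 126 (ratio 0.989), and Ccn1, a matricellular protein, 2188 and 1334 (ratio 1.64). Ccn1 passed as lower in KO immune-like cells (91.3 CPM in KO, 292 in WT). Its relative Ccn2 did so in intercalated duct-like cells (31.3 CPM in KO, 100.9 in WT). They were 1 of 3 and 1 of 8 tested there, beside 4.4% of 2158 and 2.15% of 4753 genes lower. Over all cells Fgf10 (6.10-fold), Cxcl12 (4.79-fold) and Bmp4 (51 UMIs in KO, 1 in WT) passed as higher. They were 3 of 13 tested, beside 6.72% of 10285 genes. All 3 had their highest KO levels in fibroblast-like cells or in the cluster led by Rgs5.

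Signs of cell stress differed between the libraries. The 14 immediate early and heat shock genes summed to 41328 CPM in KO and 23100 in WT Krt14/Krt17 cells, and 4 of 14 passed as higher, Hspa1b most (3.70-fold). In endothelial-like cells they summed to 55723 CPM in KO and 24136 in WT and 7 of 14 passed as higher, in myoepithelial-like cells to 61876 and 37852 (2 higher), in immune-like cells to 30737 and 18815 (2 higher), and in ionocyte-like cells to 15621 and 24459.8 (1 lower). Acinar-like cells had sums of 12402 CPM in KO and 8072 in WT (4 higher). None of the 14 passed in intercalated duct-like cells (37277 and 33010) or granular convoluted tubule-like cells (25293 and 21616). Over all genes tested, 1.57% passed as higher in Krt14/Krt17, 4.54% in endothelial-like, 3.78% in myoepithelial-like, 6.58% in immune-like and 8.28% in acinar-like cells. In ionocyte-like cells 1.38% passed as lower. Mitochondrial shares in Krt14/Krt17 cells were 4.999% in KO and 4.873% in WT. The part of stress in the ratios above was not tested. Within WT, Ptn was 911 and 1031 CPM in the 2 Krt14/Krt17 clusters, whose Fos levels were 497 and 3984. In the same order these clusters had Sdc4 at 1327 and 752 CPM and Krt14 at 2904 and 1380. The part of stress in the differences between them was not tested.

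Genes whose level followed each member over the 25 class sums of at least 30 cells (13 KO, 12 WT) were found among 9824 genes by Pearson correlation of log2(CPM + 10). The sums share libraries and depth, so the values are descriptive. For Ptn these were Krt15 (r = 0.96), a keratin of basal cells, Ccn4 (0.92), a matricellular protein, Krt5 (0.90), Moxd1 (0.90) and Dapl1 (0.87). Krt15 had 1 UMI in KO and 813 in WT, and Ccn4 1 and 243. For Mdk they were Angptl2 (0.94), Robo1 (0.90), a receptor for Slit proteins, Fzd2 (0.89), a Wnt receptor, and Fbln1 (0.88). Sdc1 was followed by Tmem65 (0.83), Dcn (0.79), Pcdh19 (0.78), Ltbp4 (0.78) and Arhgap42 (0.77), and Sdc4 by Runx1 (0.84), a transcription factor, Abtb2 (0.81), Rhbdf2 (0.79), Tmem106c (0.78) and Gk (0.77). Among the 4 genes themselves, r was 0.62 for Ptn and Mdk, 0.60 for Mdk and Sdc1, 0.46 for Ptn and Sdc1, and 0.14 to 0.35 for the pairs with Sdc4.

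**Figure D4:**
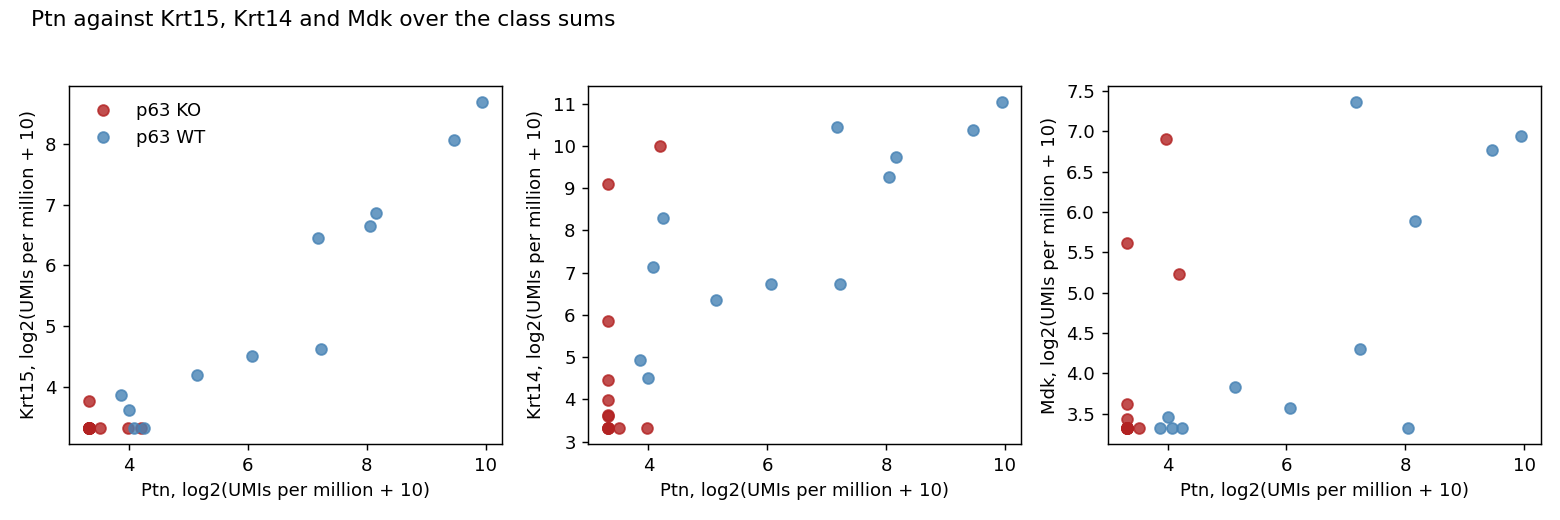
Level of Krt15, Krt14 and Mdk (y axes) against Ptn (x axis) over the 25 class sums, all as log2(CPM + 10), p63 KO in red and p63 WT in blue. Krt15 follows Ptn over the WT classes (r = 0.96 over all 25 sums), and the KO points stay at the low end of both, while for Krt14 and Mdk some KO classes are high with Ptn near 0.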

How the data were processed

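Cells of the submandibular gland were profiled with 10x Genomics Chromium 3' v2 chemistry. The authors deposited counts: raw UMIs per Ensembl gene and barcode, which were whole numbers; per the submitters' processing notes, the tools included bcl2fastq 2.19.1, Cell Ranger 2.1.0 and Seurat 3.1.2, and the build was mm10. Symbols came from GENCODE M21 (27645 of 27998 genes). The members and gene lists were chosen with earlier results of these data known; the pool of immune-like cells was formed after the clusters were seen.

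Cells were filtered (200 genes, 20% mitochondrial UMIs), clustered per library (Python 3.11.15, leidenalg 0.10.2, scanpy 1.11.5; 2000 variable genes, 30 components, 15 neighbours, resolution 1) and named from marker lists: at least 3 markers at 2-fold, 1 of them in the top 50 genes. The KO Krt14/Krt17 cluster did not meet this and was set beside the WT basal clusters by its keratins, a choice made after seeing the clusters. Further rules left some KO clusters with at least 3 markers unnamed. In 262 cells led by Ccl4 and Ccl3, MHC class II genes such as H2-Aa were leading genes. In 207 cells led by Jchain and Sprr1a, there were more plasma markers. The 31 cells led by Rgs5 and Fbln5 had as many markers of other types in the top 10 genes. Comparisons were limited to classes of 50 or more cells on both sides. Scrublet marked 4 KO and 1 WT barcodes, too few to count as working, so doublets were in effect kept.

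UMIs were summed per class and library; ratios have exact conditional, levels exact Poisson and shares exact Clopper-Pearson 95% intervals, which cover counting error only. Values at 1000 UMIs per cell are expectations over random thinning. Genes at 0 were bounded with 3 counts. Log2 medians of lists had 10 CPM added. Named were the 4 members, list genes past the size rule, the 3 list genes with most UMIs, and the 5 genes most correlated with each member, of which 1 is not reported here; Alk, Ptprz1 and Sdc2 and the keratins were named after their values were seen. The size rule was run on simulated counts with Poisson error only. These hold no variation between animals, libraries or cell mixes, so they cannot show how the rule behaves under it. Alternatives covered filters, thinning, clustering, scaling (edgeR TMM, median of ratios) and doublets. No other columns of samples were used.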

Additional observations from a re-analysis of the deposited data

Results flagged for a closer look

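The KO over WT ratio of Sdc4 was 2.58 in immune-like cells and 0.320 in endothelial-like cells. It was flagged because the same contrast ran in opposite directions in 2 cell classes. The difference between the classes was not tested, since each has 1 library per genotype. Both directions turned under another choice of cells. For immune-like cells that choice was a joint pool without the neutrophil-like cluster, and so not the same cells.

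Sdc4 was also present in barcodes that the cell filter left out, at 361 CPM (345 to 378) in 2303 KO barcodes and 214 CPM (184 to 247) in 307 WT barcodes. Ptn had 1 UMI in the KO barcodes left out and 8 in those of WT.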

How the results depend on the processing

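Values are log2 KO over WT ratios, with the reported value in brackets; the cause of each change was not tested unless the setting itself gives it. With no cell filter, Mdk over all cells was -3.09 (-2.48), Sdc1 -1.06 (-0.65), Sdc4 0.072 (0.37) and Ptn in myoepithelial-like cells -3.01 (-3.66). Without the Krt14/Krt17 clusters, the all-cell values were -1.58 for Mdk, whose call was lost, -0.12 for Sdc1 and 0.52 for Sdc4. Sdc4 over all cells was 0.45 with the stricter filter, 0.15 thinned, 0.090 with TMM and 0.068 with median-of-ratios scaling, which shifted all genes by -0.28 and -0.30. Clustering both libraries together left 4 KO Krt14/Krt17 cells, with Ptn at -1.96 (-6.88, 0 KO UMIs against the floor), Mdk -0.49 (-2.03), Sdc1 0.28 (-0.57) and Sdc4 -1.61 (0.59). Sdc4 in Krt14/Krt17 cells was 0.42 with TMM, 0.78 with cells picked by Krt14 and Krt17 UMIs and 0.21 without the WT cluster led by Id3 and Ptn. Thinned myoepithelial-like cells gave Ptn -1.62, from fewer UMIs, and Sdc4 0.57 (0.33). Sdc4 reversed in endothelial-like cells clustered together (0.39, reported -1.64) or without Krt14-positive cells (0.61). Immune-like cells clustered together gave -0.028 (reported 1.37), in a pool that left out the neutrophil-like cluster of 267 KO and 19 WT cells.

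The 141 genes past the size rule in Krt14/Krt17 cells became 265 with no cell filter, 29 clustered together, 50 thinned and 219 at 10 or more UMIs, and the 99 in myoepithelial-like cells 30 thinned and 181 at 10 or more UMIs. In all, 270 alternative ratios were run. No paired analysis was possible because each genotype has 1 library. Counts of a few KO UMIs limit Ptn and Mdk; differences between animals and between dissociations cannot be told apart from genotype.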
